A study of Zea mays with 18 samples.

Results

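The zma-miR528 family was followed in leaves and roots of maize seedlings, at sufficient phosphate and through 8 days at low phosphate. Its members were taken by name, as every entry whose name starts with zma-miR528, which gave 4 of 246 entries in the sufficient-phosphate table and 4 of 207 in the low-phosphate table. They are the guide strands zma-miR528a and zma-miR528b and the star strands zma-miR528a* and zma-miR528b*, written below without the prefix, where the star is the opposite arm of the hairpin. RefSeq (Zm-B73-REFERENCE-NAM-5.0) lists 2 loci, MIR528a and MIR528b. Sequences were not at hand, so how far the 2 guides are alike was not checked. The same reads may count toward both guides, and likewise for the stars. miR528a and miR528b are therefore not treated as independent measurements, and miR528b, the larger, is used for the level of the family.

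All samples came from inbred line Q319, grown in nutrient solution. Sufficient phosphate (SP) was 1000 μM KH2PO4 and low phosphate (LP) was 5 μM, and the labels give the same 0.1 mM CuSO4 and 1.25 mM NH4NO3 for both solutions. At SP there were 2 leaf and 2 root libraries on day 0, the 3-leaf stage, and 2 of each on day 8, the 4-leaf stage. At LP there was 1 leaf and 1 root library after 0, 1, 2, 4 and 8 days, of which day 0 had spent no time at low phosphate. A biological repeat pooled tissue of 15 to 20 plants, so the spread between SP libraries is a spread between pools, and no LP time point has a repeat. The tables hold miRNAs and no leaf or root marker genes, so the organ labels were not checked against such genes.

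miR528 is a miRNA family of monocots. In grasses it is known to cut mRNAs of copper-containing proteins, among them laccases, which polymerise lignin, ascorbate oxidase (shown in rice) and plantacyanin-like proteins. It is usually grouped with miR397, miR398 and miR408, which also target mRNAs of copper proteins and, in Arabidopsis, accumulate when copper is scarce. The targets themselves were not measured here.

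SP values are counts, and the counts over listed entries, with identical entries of a family taken once, ran from 7353497 to 12799128 per library. LP values are reads per 1000000 clean reads (RPM), and the steps of their low values gave 12885000 to 21385000 clean reads per library. The treatment is visible in the phosphate-starvation miRNA miR399e, which stood in leaf at 0.815 RPM on day 0 and 53.6 on day 8, and in root at 0.184 and 30.8.

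miR528b was the most abundant entry of every SP leaf library. The leaf libraries held 2372007 and 2892041 counts at the 3-leaf stage and 2759021 and 3280145 at the 4-leaf stage. The root libraries held 304989 and 357009, then 389852 and 291708. Leaf values lay above all root values. As a share of listed reads this was 21.4 and 22.6% in day 0 leaf, and 23.02 and 27.2% in day 8 leaf. Root shares were 3.21 and 4.36%, then 4.31 and 3.97%. The mean share was 23.6 ± 2.51% in leaf and 3.96 ± 0.532% in root (SD, n = 4 libraries each), a difference of 19.6 percentage points (exact two-sided permutation test, p = 0.0286, the smallest that 4 against 4 allows). The totals also hold the reads of miR528a, and near-identical entries count shared reads more than once: in the LP table, entries listed in leaf on day 0 sum to 1330654 per 1000000 clean reads. The sum of miR528a and miR528b, with any shared reads counted for each, was 43.7% in leaf and 7.19% in root. Of 149 entries past the count filter, 28.9% also had every leaf share above every root share.

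The entry next below the miR528 guides in leaf was miR156d, of the family that holds plants in the juvenile phase through SPL factors. miR528b exceeded it 3.25 and 3.46-fold on day 0 and 3.66 and 5.19-fold on day 8. In root, miR528b ranked 11 by abundance in all 4 SP libraries, with near-identical entries of other families counted in the rank. The largest root entry was miR168a, which targets AGO1, and miR528b reached 0.385 to 0.494 of its counts.

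**Figure D1:**
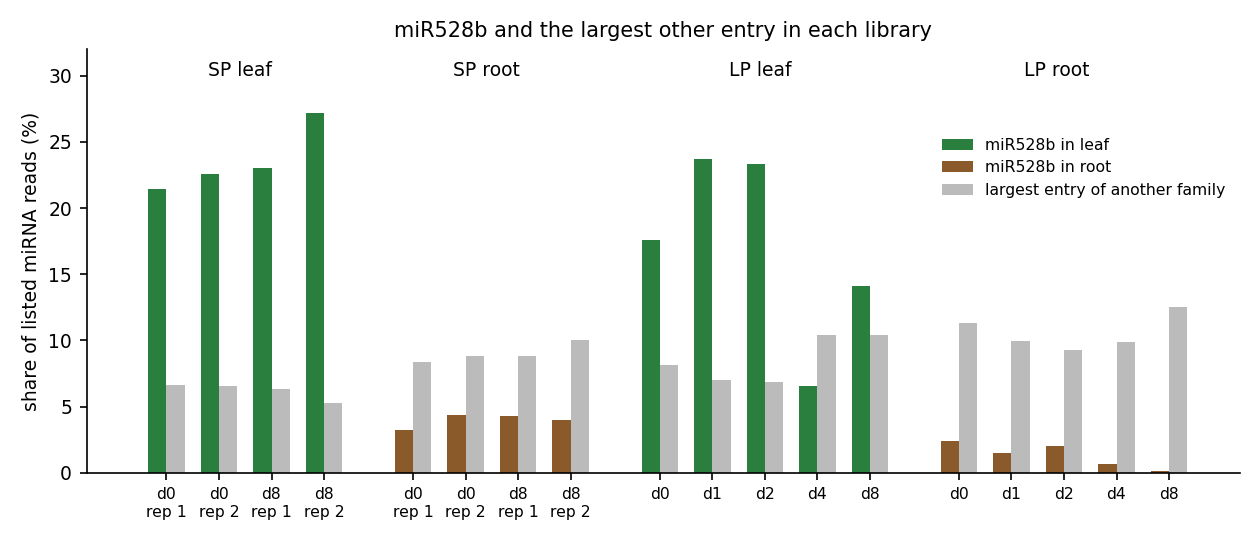
Share of listed miRNA reads (%) taken by miR528b (green in leaf, brown in root) and by the largest entry of another family (grey) in each of the 18 libraries, 1 pair of bars per library. miR528b is the taller bar in all leaf libraries except LP day 4, where it is at 6.54%, and the shorter bar in all root libraries.

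All 4 members were higher in leaf than in root at SP on both days. Counts per 1000000 (CPM, with TMM-normalised library sizes) of miR528b were 275807 and 306955 in leaf against 24811 and 34297 in root on day 0, a log2 difference of 3.30 (SE 0.21, edgeR adjusted p = 4.64e-07). On day 8 they were 245604 and 370366 against 34219 and 32379.8, a log2 of 3.21 (SE 0.21, edgeR adjusted p = 3.67e-07). For miR528a the log2 was 3.35 and 3.30. The share of all 149 entries called higher in leaf by the same test was 43.6% on day 0 and 38.9% on day 8, so the direction is a common one. By size of the difference miR528b was entry 21 from the top on both days. Entries of other families had larger organ differences. With median-ratio scaling the day 0 calls went from 65 higher and 54 lower in leaf to 52 and 59, and with scaling to listed reads to 41 and 69. On day 8 they went from 58 and 55 to 46 and 63 with the latter. The median over all entries on day 0 moved from 0.36 to 0.03 and -0.41 under these scalings, and the organ difference of miR528b moved with it, from 3.30 to 2.95 and 2.54.

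At SP the star strands differed more between organs than the guides. miR528a* had 601, 481, 604 and 730 counts in the SP leaf libraries and 19, 19, 16 and 15 in the root libraries, in the order day 0 then day 8. Its log2 difference was 5.16 on day 0 (SE 0.36, edgeR adjusted p = 3.05e-07) and 5.47 on day 8 (SE 0.37, edgeR adjusted p = 2.38e-07), which placed it at number 8 from the top of the 149 entries on both days. miR528b* differed from miR528a* by at most 2 counts in any SP library.

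**Figure D2:**
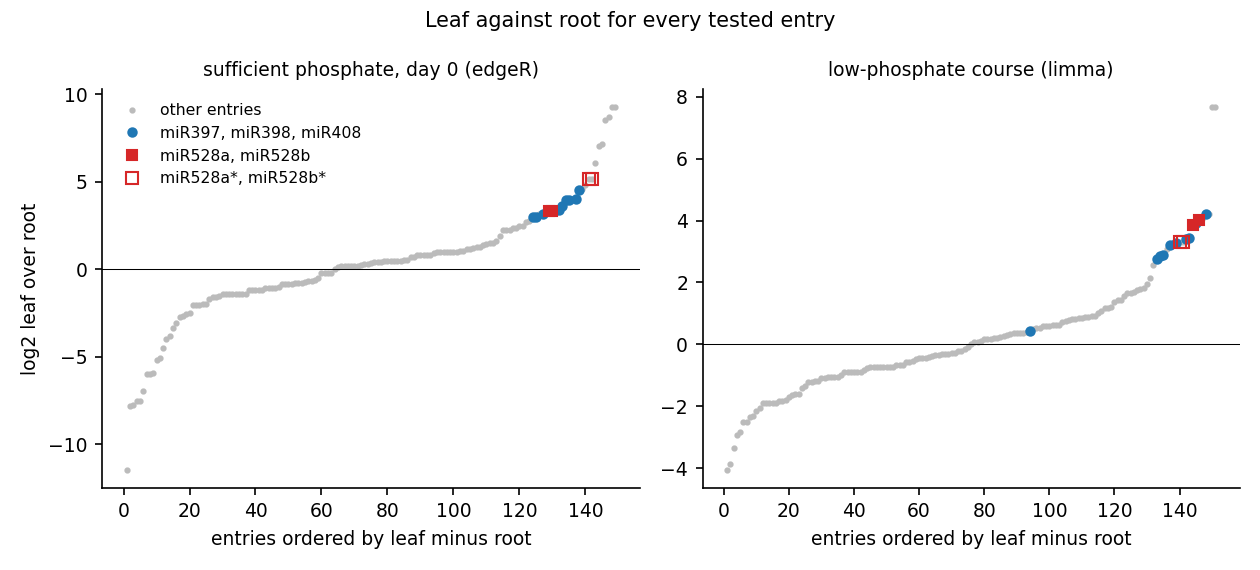
Log2 of leaf over root for every tested entry, ordered from lowest to highest, at SP on day 0 (left, edgeR) and over the LP course (right, limma). At SP the miR528 guides lie among the other copper-associated entries and the miR528 stars above all of them, at 5.16.

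Growth from the 3-leaf to the 4-leaf stage at SP left miR528 without a called change in either organ. Mean CPM of miR528b in leaf went from 291381 ± 22025 to 307985 ± 88220 (SD over 2 pools), which is 0.08 on the log2 scale (SE 0.19, edgeR adjusted p = 0.865), where 10.1% of entries fell. The calls over all entries were 0 higher and 15 lower, and 7 higher and 6 lower with scaling to listed reads. The root means were 29554 ± 6707 and 33299.5 ± 1301, 0.17 on the log2 scale (SE 0.19, edgeR adjusted p = 0.715). In root edgeR called 0% of entries, although 22 had an unadjusted p under 0.05 and DESeq2 called 8. The 2 root libraries of day 8 carry that day in their titles and the 4-leaf stage in their tissue label, while another label says day 0. The difference between the stage changes was -0.09 for miR528b (SE 0.27, edgeR adjusted p = 0.924) and 0.31 for miR528a* (SE 0.51, edgeR adjusted p = 0.924), where 6.04% of entries were called.

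At low phosphate, the RPM of miR528 in leaf stayed near its starting level for 2 days and then stood lower. miR528b was at 233652 RPM on day 0, 206981 on day 1 and 269681 on day 2, then at 59138 on day 4 and 82906 on day 8. In these units the last pair of days lay below all earlier days. On day 2 the entry took 27.0% of all clean reads of the leaf library, and on day 4 it took 5.91%. miR528a ran in parallel, at 196721, 168482, 228712, 47754 and 69811 RPM.

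Day 4 was thus 3.95-fold below day 0 in leaf (95% counting interval 3.94 to 3.96) and day 8 was 2.82-fold below (2.81 to 2.82). These intervals cover counting error only, and 1 library per day gives no spread. On day 4, 11% of 100 entries with at least 10 RPM were 2-fold or more lower than on day 0, and miR528b was number 4 from the lowest. On day 8 the share was 24.5% of 94 entries, and miR528b was number 14 from the lowest. The day 8 value depends on the scaling. Listed entries other than miR528 summed to 433549 RPM in that library, against 900254 on day 0. Relative to those entries, miR528b was 3.50-fold lower on day 4 and 1.36-fold lower on day 8. It was 1.60-fold higher on day 1 and 1.58-fold higher on day 2, where RPM gave 1.13-fold lower and 1.154-fold higher, so the direction on day 1 turns with the scaling.

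In root, miR528b fell over the course. It stood at 24046 RPM on day 0, 15842 on day 1, 21476 on day 2, 7129 on day 4 and 1632 on day 8. The values of days 4 and 8 lay below the earlier ones, and day 8 was 14.7-fold below day 0 (95% counting interval 14.5 to 14.9), or 16.97-fold relative to listed reads of other families. miR528a stood at 18900.2, 12166, 16824, 5443 and 1115 RPM. On day 8, 10.5% of 95 root entries were 2-fold or more lower than on day 0, and the lowest values among them belonged to miR528a and miR528b. Rank by abundance in root, with near-identical entries of other families counted, went from 10 on days 0, 1 and 2 to 17 on day 4 and 31 on day 8.

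**Figure D3:**
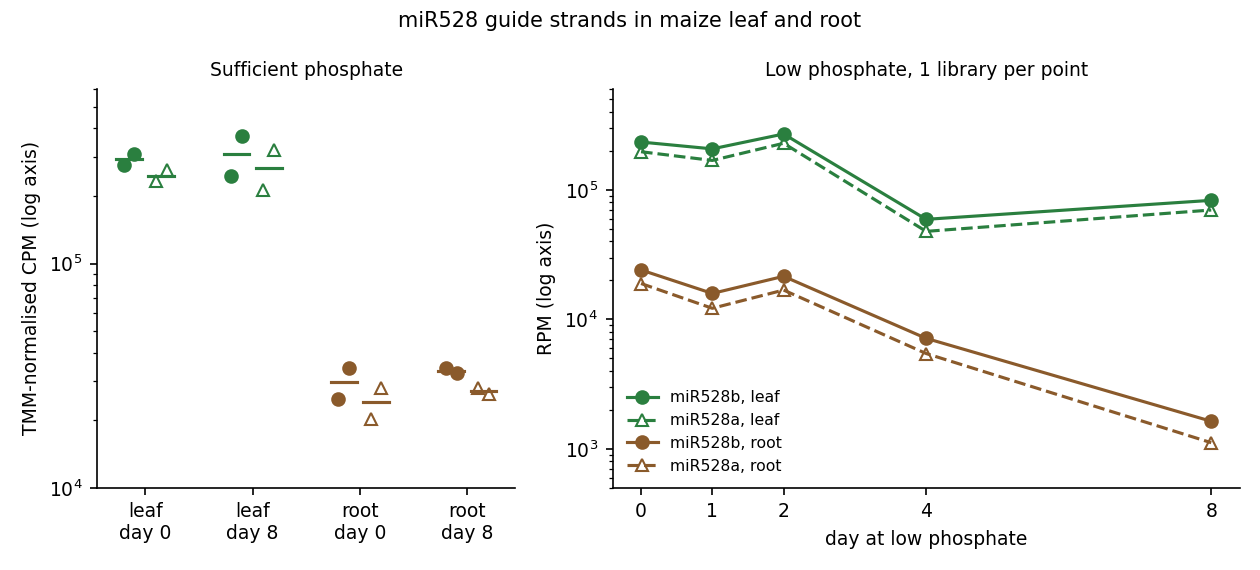
Level of the miR528 guides on log axes, as TMM-normalised CPM at SP (left, points are replicates and bars their mean, n = 2) and as RPM by day at LP (right, 1 library per point), with leaf in green and root in brown. The leaf line drops between days 2 and 4 and is at 82906 RPM for miR528b on day 8, while the root line continues to 1632 RPM.

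Across the 5 days, the slope of miR528b in log2(RPM + 1) per unit of log2(day + 1) was -1.17 in root (SE 0.28, limma adjusted p = 0.0454) and -0.61 in leaf (SE 0.28, limma adjusted p = 0.241). The root slope of miR528a was -1.22 (SE 0.30, limma adjusted p = 0.0454), the lowest of the 151 entries tested, of which 2.65% fell in root. In leaf 1.99% fell. The slopes of the organs were not shown to differ, with a leaf minus root difference of 0.55 for miR528b (SE 0.40, limma adjusted p = 0.912). For that difference limma called 0 of 151 entries, while 9 had an unadjusted p below 0.05.

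The root call is close to the threshold. It is lost without root day 8, when the slope of miR528b is -0.64 (limma adjusted p = 0.811), and without root day 0 (0.0717), root day 1 (0.0745), root day 4 (0.0544), leaf day 0 (0.0667) or leaf day 1 (0.0753). It is also lost with values scaled to listed reads of other families, at a slope of -1.22 (limma adjusted p = 0.117).

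Leaf remained above root on every LP day. The ratio of leaf to root RPM of miR528b was 9.72 on day 0, 13.06 on day 1, 12.6 on day 2, 8.30 on day 4 and 50.8 on day 8. The ratio on day 8 was the highest of the 5, with root at its lowest level. Over the course the log2 difference was 3.87 for miR528b (SE 0.76, limma adjusted p = 0.00118) and 3.31 for miR528a* (SE 0.45, limma adjusted p = 0.000113), where 33.1% of 151 entries were called higher in leaf. The root star was at 1.04 RPM or less, so the 1 added before the log makes 3.31 an understatement. Leaf over root RPM of miR528a* was 13.1 on day 0 and 37.6 on day 2. It was at least 151, 59.2 and 16.0 on days 1, 4 and 8, with leaf reads taken as exact and 0 root reads as 3. With values scaled to listed reads of other families, the calls over all entries went from 50 higher and 52 lower to 64 and 27. The share of listed reads was 17.1 ± 7.13% in leaf and 1.35 ± 0.940% in root (SD over 5 days each). These groups did not overlap (exact two-sided permutation test, p = 0.00794, the smallest that 5 against 5 allows), as for 30.5% of entries by RPM. The 5 libraries of an organ are different days and not repeats, and neither the limma fit nor the permutation test matched leaf and root by day. A limma fit with a term for each day called 56 entries higher and 50 lower in leaf.

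miR528b was no longer the first entry of the leaf library on LP day 4, where it stood at 0.630 of miR156d. It ranked 10 there, with near-identical entries of other families counted in the rank. On day 8 it was first again, at 1.36 times miR168a. On days 0, 1 and 2 it had been at 2.15, 3.39 and 3.42 times the next family.

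The guide far outnumbered the star in every library, and more so in root at SP. There were 3335, 5099, 3954 and 3874 miR528a reads per miR528a* read in the SP leaf libraries (day 0, day 0, day 8, day 8). In root the same ratio was 13170.0, 15298, 19841 and 15679. All root ratios lay above all leaf ratios, and the geometric mean was 4017 in leaf and 15823 in root, 3.94-fold apart (exact two-sided permutation test over 4 against 4 libraries, p = 0.0286, the smallest it allows). The root ratios rest on 15 to 19 star reads, with 95% counting intervals from 8433 to 34712 over the 4 libraries. The same ratio was not computed for other families, so how common such a separation of the organs is was not tested. Replacing miR528a by miR528b gave the same order, with a log2 difference of -2.05 for leaf minus root against -1.98.

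At LP the star stood in leaf at 13.6 RPM on day 0, 21.1 on day 1, 18.4 on day 2, 10.2 on day 4 and 3.10 on day 8, from 184, 275, 293, 131 and 56 reads. It was highest on day 1 and lowest on day 8. Day 8 was 4.40-fold below day 0 (95% counting interval 3.25 to 6.05), or 2.12-fold relative to listed reads of other families. The guide was lowest on day 4 and the star on day 8, so the ratio moved in both directions. It was 14433, 7977, 12452, 4697 and 22538 guide reads per star read on days 0, 1, 2, 4 and 8, and the counting intervals of days 4 and 8, 3958 to 5618 and 17356 to 29836, do not meet. The leaf slope of miR528a* was -0.59 (SE 0.23, limma adjusted p = 0.142). It passed with day itself as the time scale (-0.28 per day, limma adjusted p = 0.0122) and without leaf day 0 (-1.14, limma adjusted p = 0.0228).

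In root at LP the star had 17 reads on day 0 and 10 on day 2, and 0 on days 1, 4 and 8. A count of 0 allows up to 3 reads, which is 0.140 RPM on day 1, 0.172 on day 4 and 0.194 on day 8, against 1.04 RPM on day 0. With the 17 reads of day 0 taken as exact, the star was at least 7.44-fold lower on day 1 than at the start. The same bound was 6.08 for day 4 and 5.38 for day 8. The counting error of the day 0 reads is not included and would lower these bounds. The guide to star ratio in root was 18119 on day 0 and 34472 on day 2, and at least 86722, 31721 and 5751 on days 1, 4 and 8. Within days, root was above leaf on days 0, 1, 2 and 4, although the counting intervals of day 0 meet (12492 to 16769 in leaf, 11316 to 31103 in root), and the bound of day 8 leaves the order undecided. With the bounds taken as values and days not matched, leaf and root at LP overlapped (log2 difference -1.20, exact two-sided permutation test, p = 0.143). Adding 0.5 reads to guide and star in their place gave -2.74 (exact p = 0.0159), and leaving out root day 8 gave -1.74 (exact p = 0.0317). The root ratios of days 1, 4 and 8 are set by the value put in for 0 star reads. On day 8 the ratio was 5751 with 3 reads put in and 34509 with 0.5 added, so these tests do not decide the order of the organs.

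**Figure D4:**
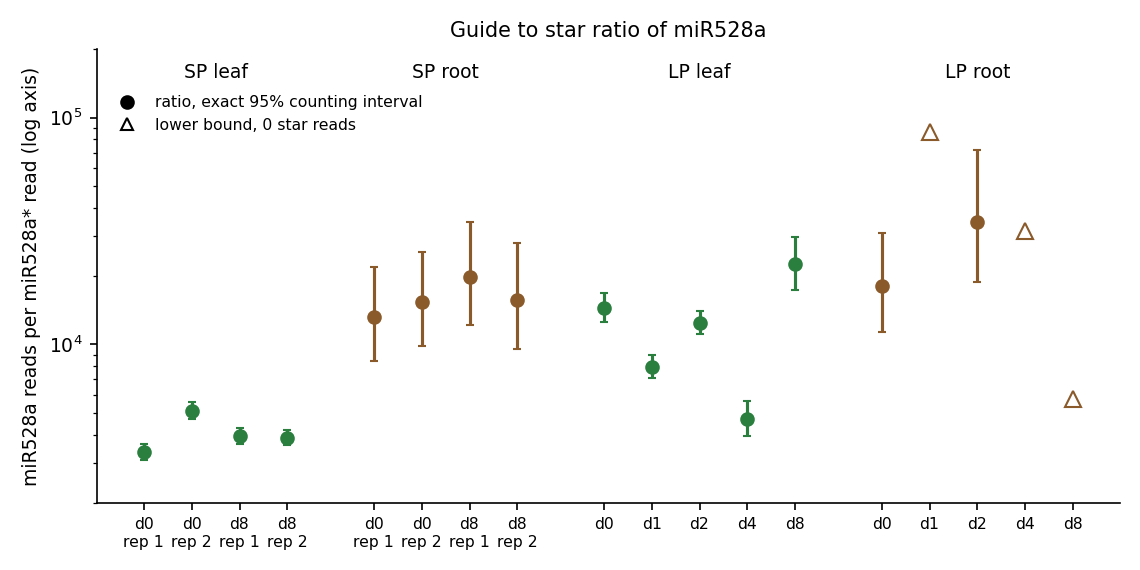
Reads of miR528a per read of miR528a* in each library on a log axis, with exact 95% counting intervals and, as open triangles, lower bounds where the star had 0 reads. At SP the 4 root points, from 13170.0 to 19841, lie above the 4 leaf points, from 3335 to 5099, while LP leaf runs from 4697 to 22538.

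The listed guides kept a steady order, with miR528b above miR528a in all 18 libraries. Their ratio was 1.16 to 1.18 in SP leaf and 1.22 to 1.24 in SP root, where the organs did not overlap (exact two-sided permutation test, p = 0.0286, the smallest 4 against 4 allows). At LP it was 1.18 to 1.24 in leaf and 1.27 to 1.46 in root, again without overlap (exact two-sided permutation test with days not matched, p = 0.00794). This ratio was chosen after the data were seen, so both p-values only describe a separation already in view. The highest ratio, 1.46, was that of root on day 8, where the level was lowest. The excess of miR528b over miR528a equalled 13.4 to 19.3% of the miR528b value in leaf and 17.95 to 31.7% in root over both tables. The labels do not say how reads were divided between the 2 names.

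Other copper-associated families had the same organ pattern at SP. Of 10 listed entries of miR397, miR398 and miR408, with stars included, 10 were higher in leaf on day 0 and 10 on day 8, where 43.6% and 38.9% of all 149 entries were called higher in leaf. Their median log2 was 3.50 and 3.49 against 0.36 and 0.26 over all entries. Several of these share reads, such as miR398a with miR398b. miR857 was not among the listed entries. In leaf between the stages 1 of the 10, miR408b*, fell, from 5638 ± 240 to 2843 ± 1014 CPM (SD, n = 2; edgeR adjusted p = 0.0252). This share is that of all entries, of which 10.1% fell, and the count is 0 without either of the leaf libraries of day 0.

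Most of them were lower late in the LP course too. Of 9 such entries with at least 10 RPM in leaf, 6 were 2-fold or more lower on day 4 than on day 0, where the share of all entries was 11%, and 2 were higher, where it was 15%. On day 8, 7 were lower, where it was 24.5%, but relative to listed reads other than miR528 only miR397b*, miR398b* and miR408b* were, 3 of 9, where the share of all entries was 3.19%. The day 4 count was 6 on that scale too. In root 7 of 7 were lower on day 4 and 7 of 7 on day 8, where the share of all entries was 12.5% and 10.5%. miR397b, which targets laccases, had 333, 390, 261, 108 and 82.1 RPM in leaf and 44.2, 25.7, 30.4, 14.1 and 6.59 in root. miR408b*, the star of the plantacyanin regulator miR408b, had 6599, 7697, 7396, 1298 and 715 RPM in leaf and 471, 328, 265, 102 and 35.9 in root. In leaf on day 0 miR408b itself had 68.1 RPM, so here the star name does not mark the rarer strand. miR398a, which targets copper/zinc superoxide dismutases, had 90.0, 124, 77.5, 36.9 and 35.0 RPM in leaf and 12.1, 5.19, 10.2, 2.17 and 1.75 in root.

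The exception in leaf was the miR408 guide. It stood at 68.2, 126, 139, 180 and 102 RPM, highest on day 4, when miR528b was lowest. In root miR408 went from 33.9 RPM on day 0 to 7.61 on day 4 and 10.9 on day 8. By slope, 3 of 10 of these entries fell in leaf, against 1.99% of all entries, and 2 of 10 in root, against 2.65%, with median slopes of -0.59 and -0.58 against 0.04 and 0.03 over all 151 entries. Called in leaf were miR397b (-0.74), miR398b* (-0.77) and miR408b* (-1.15), and in root miR397b (-0.78) and miR408b* (-1.17). In root miR398a*, 1 of the 10, held on every day the 0.5 RPM put in for blanks. Its root slope was therefore fixed in advance and could not fall. With values scaled to listed reads of other families than miR528, 0 of 10 were called in leaf and 0 in root, and without leaf day 8 or root day 8 the count was 0 in that organ. Without leaf day 1 it was 1 in each organ and without leaf day 4 it was 5 in each. Without root day 0, 1 or 4 it was 1 in leaf and 0 in root, and without leaf day 8 or root day 2 it was 4 in root.

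**Figure D5:**
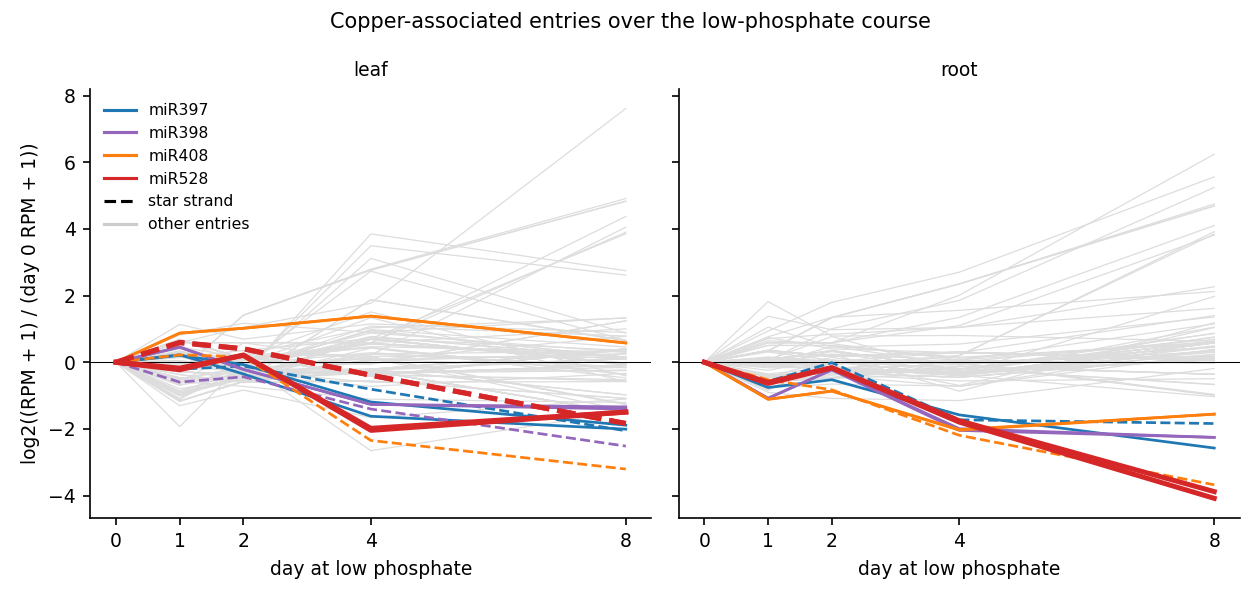
Log2 of (RPM + 1) over its day 0 value by day at LP in leaf (left) and root (right), for entries reaching 10 RPM in that organ, with copper-associated families coloured, stars dashed and all other entries in grey. In root all coloured lines lie below 0 on days 4 and 8 and miR528a and miR528b end lowest, while in leaf the miR408 guides lie above 0 throughout.

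The entries most like miR528b over the 10 LP libraries, by Pearson correlation of log2(RPM + 1) among 147 entries, were miR397b (r = 0.979), miR408b* (0.975), miR398b (0.968), miR398a (0.967) and miR397a (0.952). These libraries fall into 2 organs that differ in level, so the correlation within the 5 libraries of each organ is given beside it. Within leaf it was 0.892 for miR397b and 0.922 for miR408b*, and within root 0.979 and 0.974. The miR408 guide had -0.437 within leaf and 0.672 within root. Over the 8 SP libraries, among 145 entries, the highest were miR397b* (r = 0.999), miR166k and miR166j (0.997 each), miR156j (0.995) and miR398a (0.994). Within SP leaf these were 0.979 for miR397b* and -0.416 for miR166k over 4 libraries. All these values are descriptions.

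The growth control gives the level at the same age without low phosphate, though in a separately made table, so shares within a library are set side by side without a test. In leaf on day 8 miR528b took 23.02 and 27.2% of listed reads at SP and 14.1% at LP. In root on day 8 it took 4.31 and 3.97% at SP and 0.149% at LP. On day 0, before any low phosphate, the shares were 21.4 and 22.6% at SP and 17.6% in the LP table for leaf, and 3.21 and 4.36% against 2.43% for root. The tables differed more in the star: on day 0 in leaf the guide to star ratio was 3335 and 5099 in the SP libraries and 14433 in the LP library, from plants of the same nominal condition.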

How the data were processed

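Small RNA of 18 leaf and root libraries was sequenced as 50 nt HiSeq tags, cleaned and annotated by the authors, per the series' design text. No source used here names the aligner, the miRBase release or the build. The deposited SP values are read as a raw count per entry and library: all are whole with no gaps at low values, although a suffix in the headers that marks scaled values in the other table is not explained. LP values were deposited as a normalised signal in RPM: per the series' design text, a count over the library's clean reads, times 1000000. In it 0.01 stands for 0 reads, and blanks were set to 0.5 RPM for fits. LP depth came from the steps of low values, 100% of which were whole reads within 0.03 reads.

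Same-family entries that never differed were merged, leaving 197 SP and 156 LP entries. Counts were tested with edgeR 4.0.16 (R 4.3.3, TMM, robust quasi-likelihood, at least 10 counts in at least 2 libraries, 4 residual degrees of freedom). The SE beside edgeR values is the absolute log2 change over the square root of F. LP values were tested with limma 3.58.1 (trended, robust) on log2(RPM + 1), which understates changes of rare entries, keeping entries that reached 1 RPM in 2 or more libraries. Adjusted p-values are Benjamini-Hochberg over all entries of a contrast, at 0.05. Shares and ratios used exact permutation tests (scipy 1.17.1), and folds from reads exact 95% binomial intervals, which cover counting error only. Both fits were tested on simulated data. Alternatives were median-ratio scaling, DESeq2 1.42.0, other filters, pseudocounts and time scales, a replicate block and leaving out each library. Scaling to listed reads other than miR528, miR528a in place of miR528b for the share, and the ratio of the guides were chosen after seeing the data. Fits to recovered LP reads were not run. The members, the copper list (miR397, miR398, miR408, miR528, miR857) and the tests were chosen with earlier results of these data known. Named entries were the miR528 entries, the 5 most like miR528b per table, the next most abundant entry, called copper entries with up to 2 guides per family, and miR399e and miR827.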

Additional observations from a re-analysis of the deposited data

Results flagged for a closer look

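One value stood far from the others of its organ. The ratio of miR528b to miR528a in root on LP day 8 was 1.46, while the other 4 LP root libraries had 1.27 to 1.31. It comes from 25252 and 17254 reads. The rule used for such gaps flags about 1 in 20 single sets by chance. With 12 sets of 4 or 5 libraries examined, 1 flag is not unusual.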

How the results depend on the processing

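The leaf over root difference of all 4 members kept its direction and its call at SP and LP under each scaling, filter, tool, pseudocount and left-out library that was run. Stage values near 0 did not keep their sign. The leaf stage log2 was -0.0063 for miR528a and -0.035 for miR528b with no count filter, and the stage difference between organs was 0.10 and 0.061 with scaling to listed reads; none was called. Entries called for leaf stage numbered 6 with median-ratio scaling, 6 with no filter and 8 with DESeq2, with 13 by listed reads, for root stage 15, 7 and 8, with 11 by listed reads, and for the stage difference 4, 5 and 5, with 5 by listed reads. LP slopes with day itself as the time scale gave 25 calls in leaf and 24 in root, of which 6 and 6 were copper-associated, and -0.28 for miR528a* and miR528b* in leaf. A pseudocount of 0.5 gave 17 root calls, 5 of them copper-associated. Scaling to listed reads other than miR528 gave 4 root calls, 0 copper-associated calls in either organ and -1.22 for miR528b in root. Adding 0.5 reads gave an LP guide to star difference of -2.74, where the value put in for 0 star reads sets several root ratios. The cause of the other changes was not tested.

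With 1 library left out at a time, leaf stage ran from -0.21 to 0.37 for miR528a, -0.25 to 0.35 for miR528b, -0.17 to 0.45 for miR528a* and -0.17 to 0.45 for miR528b*, with 0 to 18 calls and 0 to 1 copper-associated. Root stage ran from -0.14 to 0.34 for miR528a and -0.13 to 0.35 for miR528b, with 0 to 19 calls. The stage difference ran from -0.38 to 0.30, -0.42 to 0.26, -0.032 to 0.59 and -0.029 to 0.58 for the 4 members, with 0 to 20 calls. A lone sample left in a group was assumed to vary like the others. The LP slope ran from -1.63 to -0.64 for miR528b in root and, in leaf, from -1.14 to -0.14 for miR528a* and miR528b*. The leaf minus root difference of slopes ran from 0.025 to 1.02 for miR528b, 0.037 to 1.09 for miR528a, -0.86 to 0.14 for miR528a* and -0.85 to 0.14 for miR528b*. LP slope calls ran from 0 to 18 in leaf and 0 to 18 in root, of which 0 to 5 in each were copper-associated. The SP share difference ran from 18.4 to 20.3 percentage points, and the SP guide to star difference from -2.09 to -1.87; 3 against 4 libraries cannot go below an exact p of 0.0571. The LP guide to star difference ran from -1.74 to -0.76.

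Replicate numbers were not used to pair the SP libraries in the main fit. Correlations between groups of the deviations of replicate 1 ran from -0.17 to 0.31 over 149 entries. The highest, 0.309, was that of leaf and root on day 0, while leaf and root on day 8 gave -0.116. With a replicate block, miR528b was 3.32 and 3.18 higher in leaf on days 0 and 8, its stage log2 was 0.06 in leaf and 0.20 in root, and the stage difference had 1 call in place of 9. Count tests on recovered LP reads were not run. Depth limits the star in root, and LP time points have 1 library each.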
